A study of Mus musculus with 6 samples.

Results

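The regions described here are the ESRRB binding regions of mouse embryonic stem cells in 2iL and of the same line 48 h after 2iL was withdrawn. They were taken from the 2 peak lists that the authors deposited for these conditions. A region is a unique interval of a list, with the summit of its highest fold enrichment. There were 24737 such regions, 13767 in 2iL and 10970 at 48 h, of 31755 in the 3 lists of the series. A region was called shared when it overlapped a region of the other list by at least 1 bp, and otherwise 2iL-only or 48 h-only.

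The cells were E14, an embryonic stem cell line derived from mouse blastocysts, grown on gelatin in N2B27, a serum-free medium. The 2iL group also received 3 µM CHIR99021, which inhibits the kinase GSK3, 1 µM PD0325901, which inhibits the kinase MEK, and the cytokine LIF. The 48 h group was plated in 2iL and then kept in N2B27 alone for 48 h. Both groups were fixed with 1% formaldehyde, ESRRB was pulled down with a mouse monoclonal antibody, and libraries were made from 10 ng of DNA. The labels name no genetic change in either group. There was 1 ESRRB library for each condition, without replicates, so conditions were not tested against each other, and the intervals below are exact Clopper-Pearson 95% intervals that cover counting error only. Peak lists hold no expression, so neither the identity of the cells nor the level of ESRRB could be checked.

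ESRRB is an orphan nuclear receptor that binds DNA without an added ligand. It recognises the nuclear receptor hexamer preceded by a short extension, so a single receptor can occupy one site. In mouse embryonic stem cells it is a member of the naive pluripotency network, and it recruits coactivators such as NCOA3 to its sites. Other estrogen-related receptors are known for binding genes of mitochondrial energy metabolism.

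The letters of the extended site TCAAGGTCA were looked for on both strands of promoter windows, since sequence played no part in how regions were called shared. A window runs from 250 bases before to 50 bases after a transcription start in RefSeq (build GRCm38.p6), and 32851 windows of 27025 genes were read. Of these, 244 held the summit of a shared region, 195 that of a 2iL-only region and 59 that of a 48 h-only region. TCAAGGTCA was present in 11 windows with a shared summit, 2 with a 2iL-only summit and 5 with a 48 h-only summit. The sites of protein-coding genes are printed because they show the same element in all 3 classes. Each is the 29 bases around the element on the strand that reads TCAAGGTCA, which is in capitals, 5′ to 3′. A match describes the letters in the window and is not proof of a bound site.

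The following 8 sites lay in windows with a shared summit.
Msrb2, chr2:19371507-19371535, + strand: tccgcgaagaTCAAGGTCAagaggagcaa
Atp5g3, chr2:73911360-73911388, + strand: gggaagacgcTCAAGGTCActttgtaaca
Aptx, chr4:40703033-40703061, + strand: aactccacccTCAAGGTCAccgctccgag
Clec2d, chr6:129180491-129180519, - strand: gaaacgcattTCAAGGTCAggagccacac
Nfkbid, chr7:30421582-30421610, + strand: atgacactctTCAAGGTCAgcccctccca
Timm8b, chr9:50603795-50603823, + strand: tttcgagggcTCAAGGTCActctacaacc
Sgk1, chr10:21978599-21978627, - strand: cttcaaaagtTCAAGGTCAgcccggtcct
Psmc3ip, chr11:101095655-101095683, - strand: cgggtttagcTCAAGGTCAcgagtgctca

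A single protein-coding site lay in a window with a 2iL-only summit, and 4 lay in windows with a 48 h-only summit.
Myh7b (2iL-only), chr2:155611187-155611215, - strand: attgctgttgTCAAGGTCAgcaaaggaga
Syt2 (48 h-only), chr1:134646435-134646463, - strand: tcgcctcccgTCAAGGTCAgggaaactgc
Hcn2 (48 h-only), chr10:79716456-79716484, - strand: gcaagcaggcTCAAGGTCAgtcagcccct
Sgms1 (48 h-only), chr19:32349339-32349367, - strand: ccttcctggaTCAAGGTCAtacatgatta
Gjb1 (48 h-only), chrX:101382000-101382028, - strand: ctacatgattTCAAGGTCAacctgggtta

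Around the start of Atp5g3, which encodes a subunit of the mitochondrial ATP synthase, the fold enrichment was 13.8 in 2iL and 10.3 at 48 h, and the summits lay 5 and 14 bp from the middle of the element. Timm8b, a gene of mitochondrial protein import, had folds of 5.90 and 6.33. Sgk1, which encodes a serum- and glucocorticoid-regulated kinase, had 5.88 and 9.20. Nfkbid, a gene of an IκB-like protein, had 8.59 and 4.25. Each fold is over its own library's background, so the position within each list is the fairer reading. By that measure Sgk1 stood at the 50.1 percentile in 2iL and the 88.1 percentile at 48 h, while Nfkbid stood at 79.2 and 33.4. The 2iL-only summit at Myh7b, a myosin heavy chain gene, had a fold of 9.12, and the 48 h-only summit at Hcn2, a pacemaker channel gene, had 7.03. The other 3 sites with 48 h-only summits had weak to middling folds, 2.68 at Syt2 (a synaptic vesicle gene), 3.43 at Sgms1 (a sphingomyelin synthase gene) and 4.63 at Gjb1 (a connexin gene).

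The 250 bases before the start are printed for the strongest protein-coding window of each class, to show the whole promoter around the element. They are read along the gene, so an element on the opposite strand appears as its reverse complement, in capitals.
Atp5g3 (shared), chr2:73911327-73911576, - strand: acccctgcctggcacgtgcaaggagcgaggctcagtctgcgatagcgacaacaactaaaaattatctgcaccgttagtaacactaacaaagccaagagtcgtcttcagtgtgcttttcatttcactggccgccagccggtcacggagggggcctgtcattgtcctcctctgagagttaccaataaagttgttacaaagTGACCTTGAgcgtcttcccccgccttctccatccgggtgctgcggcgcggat
Myh7b (2iL-only), chr2:155610993-155611242, + strand: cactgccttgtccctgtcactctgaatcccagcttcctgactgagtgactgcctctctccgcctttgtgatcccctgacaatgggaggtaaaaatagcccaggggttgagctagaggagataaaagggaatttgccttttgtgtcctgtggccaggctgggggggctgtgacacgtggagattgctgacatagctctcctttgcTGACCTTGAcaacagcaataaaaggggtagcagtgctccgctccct
Hcn2 (48 h-only), chr10:79716384-79716633, + strand: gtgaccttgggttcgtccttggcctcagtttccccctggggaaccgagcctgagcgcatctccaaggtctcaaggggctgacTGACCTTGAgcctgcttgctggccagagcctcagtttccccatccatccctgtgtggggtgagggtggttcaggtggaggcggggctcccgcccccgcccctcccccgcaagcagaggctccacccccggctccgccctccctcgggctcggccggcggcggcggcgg

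The shorter forms of the element were found more often in windows with a summit than in promoters at large, and for 2iL-only windows the interval of the full element included the share of all windows. TCAAGGTCA was in 0.423% of all windows, against 4.51% (2.27 to 7.92) with a shared summit, 1.03% (0.124 to 3.66) with a 2iL-only summit and 8.47% (2.81 to 18.7) with a 48 h-only summit. The shorter AAGGTCA, which is contained in it, was in 4.72% of all windows, 32.8% (26.9 to 39.1) of shared, 20.5% (15.1 to 26.9) of 2iL-only and 37.3% (25.04 to 50.9) of 48 h-only windows. The hexamer AGGTCA, contained in both, was in 16.3% of all windows and in 53.3%, 33.3% and 57.6% of the 3 classes. When a window was counted for any overlap with a region, wherever its summit lay, TCAAGGTCA was in 1.45% of shared, 0.281% of 2iL-only and 1.81% of 48 h-only windows. The 2iL-only share then rested on 2 of 712 windows, and its interval (0.0340 to 1.01) included the share of all windows. AAGGTCA was in 10.6%, 8.57% and 10.1% by that count. Windows that no region of either list overlapped held the 3 sequences in 0.380%, 4.39% and 15.9%. Where AAGGTCA was present, the median distance from the summit was 37 bp for shared and 47 bp for 2iL-only summits of 2iL, and 31.5 and 40.5 bp for shared and 48 h-only summits of 48 h.

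The share of windows with AAGGTCA also varied with the strength of the summit. With the 2iL list divided by fold into 5 groups of equal size, AAGGTCA in the weakest 2 groups was in 25.3% (16.7 to 35.5) of 91 shared windows and 17.0% (11.3 to 24.1) of 147 2iL-only windows. In the middle group it was in 30.8% of 26 and 24.2% of 33, and among the strongest 2 groups in 44.2% (34.0 to 54.8) of 95 shared and 46.7% (21.3 to 73.4) of 15 2iL-only windows. The 48 h list gave the other order among weak summits, with 24.8% (16.9 to 34.1) of 105 shared and 32.6% (19.5 to 48.0) of 46 48 h-only windows. Its middle group had 29.0% of 31 and 55.6% of 9, and its strongest 2 groups 54.1% of 61 and 50% of 4. Intervals of the 2 classes overlapped wherever both are given here, and the groups were not tested against each other.

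Across the genome, 6981 of 13767 2iL regions were shared (50.7%, 49.9 to 51.5), and 6968 of 10970 48 h regions (63.5%, 62.6 to 64.4). This left 6786 2iL-only regions covering 6.60 Mb and 4002 48 h-only regions covering 3.75 Mb. The regions that overlapped formed 7069 pairs, of which 6711 were one to one. In 86 cases a 2iL region, and in 100 cases a 48 h region, overlapped more than 1 region of the other list. Summits of one-to-one pairs lay close together, at a median distance of 26 bp (quartiles 12 and 52), and 89.8% lay within 100 bp. The median distance was 19 bp in the strongest 20% of 2iL regions and 41 bp in the weakest 20%.

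The 2 libraries differed in reads at summits and in background, while no library totals were at hand to give depth itself. The median number of reads at a region's summit, recovered from the deposited fold and p-value, was 51 in 2iL and 68 at 48 h, and the lowest background was 5.05 and 8.09 reads. The 48 h list was thus shorter although its background level was 1.60 times that of 2iL. Binding too weak to be called cannot be told from no binding in these lists. When the 2iL list was shortened by fold to 10970 regions, the length of the 48 h list, 55.9% of 2iL and 56.2% of 48 h regions were shared.

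Sharing increased with the strength of the region in both lists. In 10 equal groups of the 2iL list by fold, the shared share was 26.3% (24.0 to 28.7) in the weakest, 43.3% and 54.3% in the middle pair, and 82.5% (80.4 to 84.5) in the strongest. In the 48 h list it was 42.2% (39.2 to 45.1) in the weakest group and 95.0% in the strongest. The strongest groups held 241 2iL-only regions and 55 48 h-only regions. Shared regions were also wider than the others, with a median of 1108 bp against 886 bp for 2iL-only regions in 2iL, and 1069.5 bp against 844.5 bp for 48 h-only regions at 48 h. More than 1 summit was listed in 44.5% of shared and 36.3% of 2iL-only regions of 2iL, and in 36.2% of shared and 28.8% of 48 h-only regions of 48 h. Median reads at the summit were 64 and 43 in 2iL, and 81 and 53 at 48 h.

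**Figure D1:**
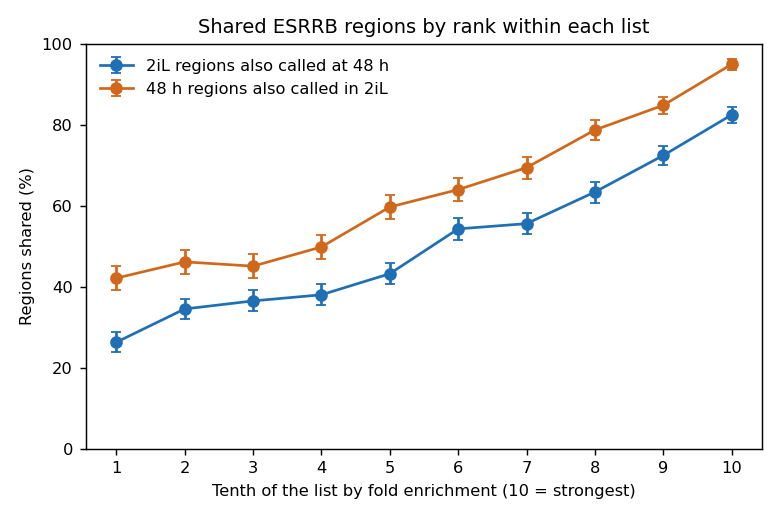
Share of regions that overlapped the other list (y axis, %) in each of 10 equal groups of its own list by fold enrichment (x axis, 10 is the strongest), for 2iL (blue) and 48 h (orange); points are shares and bars exact 95% intervals for counting error. The 2iL share climbs from 26.3% to 82.5%, and the 48 h curve lies above it in all 10 groups.

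Most regions of a single list stood alone. Of 2iL-only regions, 18.9% had a 48 h summit within 10 kb, and of 48 h-only regions 21.2% had a 2iL summit within 10 kb. In 2iL, having another region of the same list within 10 kb made little difference to sharing, with 51.0% shared against 50.6%. At 48 h the shared share was 66.0% (64.2 to 67.8) with such a neighbour and 62.7% (61.7 to 63.8) without. In the strongest of 5 equal groups of the 48 h list by fold, it was 92.9% (90.5 to 94.8) against 88.8% (87.1 to 90.3). Only in the weakest group was the order reversed, 41.7% (37.8 to 45.7) against 45.1% (42.6 to 47.6). By chromosome, the shared share of 2iL regions lay between 45.5% on chromosome 12 and 53.7% on chromosome 4. For 48 h regions it lay between 54.4% on the X chromosome and 67.0% on chromosome 11, setting aside chromosome Y, which held 4 regions at 48 h, none of them shared, and none in 2iL.

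The strongest 2iL-only regions were as strong as well-shared ones and had no 48 h summit nearby. A region 7.70 kb from Bach1, which encodes a haem-binding repressor of transcription (chromosome 16, 87690635 to 87692027), had a fold of 28.0 with 208 reads at its summit. It ranked above 99.9% of the 2iL list, and the nearest 48 h summit was 334 kb away. The next, 5.33 kb from Ffar2, a receptor for short-chain fatty acids (chromosome 7, 30827297 to 30829658), had a fold of 24.1 and a 48 h summit no nearer than 123 kb. The others of the 10 strongest lay nearest Fam189a2, Pdcd6ip, Lyzl4, Slc39a11, Bcar3, Opcml, Cd83 and Slc25a13, at folds of 19.7 to 22.6. The region inside Slc39a11, a zinc transporter gene, had a 48 h summit 21.1 kb away, the least distance among the 10.

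The strongest 48 h-only regions were weaker, at folds of 12.2 to 14.3, and ranked between the 95.5 and 97.6 percentiles of their list. They lay nearest Map1b, a microtubule protein gene (fold 14.3, 40.3 kb away), Gap43, a growth cone protein gene (14.3, 235 kb away), Ptger3, a prostaglandin receptor gene (14.2, inside the gene), and Rfx3, a transcription factor of ciliated cells (13.4, 126 kb away). The next 2 lay inside Fgfr2, a receptor of FGF signalling (13.3), and Fgf1, a ligand of it (12.9). The last 4 lay nearest Oaz2, Etl4, Cmip and Ubl3. Not all of these stood in places empty in 2iL. The Fgfr2 region (chromosome 7, 130251484 to 130252812) was 1.29 kb from a 2iL summit, and the Cmip region was 5.23 kb from one. All 20 of these 2iL-only and 48 h-only regions remained in their lists at a q of 1e-05 or less.

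Among the 6711 one-to-one pairs, ranks within the 2 lists were related only loosely, with a Spearman rank correlation of 0.502 over regions of 2 libraries, given as a description. The median change from 2iL to 48 h was -1.16 percentile points (quartiles -18.8 and 14.3). A pair ranked at least 25 points higher at 48 h in 1049 cases (15.6%) and at least 25 points lower in 1299 (19.4%), while 4363 (65.0%) stayed within 25 points. Since ranks have a ceiling and a floor, weak 2iL regions could mostly move up and strong ones down. The 775 pairs from the weakest 20% of the 2iL list had a median change of 20.6 points, and the 2052 from the strongest had -7.78.

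**Figure D2:**
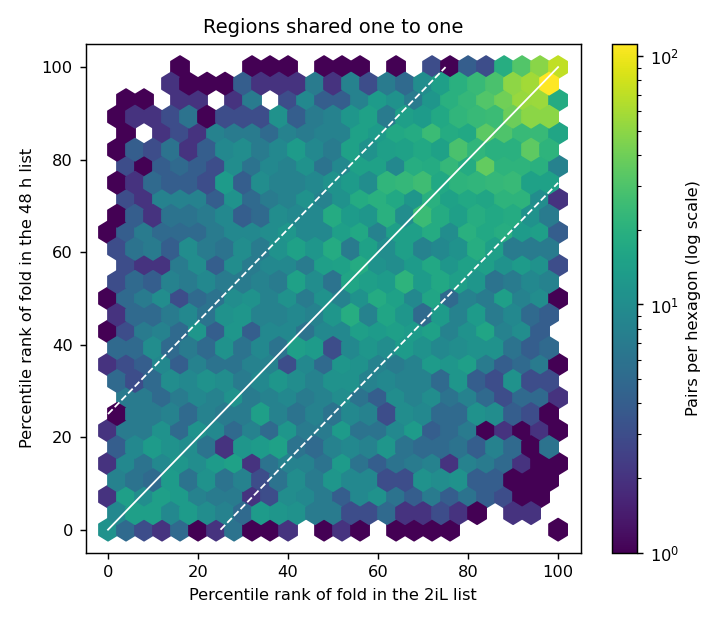
Percentile rank of fold in the 2iL list (x axis) and in the 48 h list (y axis) for the 6711 pairs shared one to one; colour gives the number of pairs per hexagon on a log scale, the solid line marks equal ranks and the dashed lines a difference of 25 points. Pairs are densest near the top right corner and spread widely elsewhere, and 65.0% lie between the dashed lines.

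The strongest pairs in or near Pld1, Myrip, Pdgfa and Nrip1 kept their place or nearly so. Those nearest Asmt and Klf4 differed more in fold, although percentile ranks change little at the top of a list. A region inside Myrip, a gene of myosin-linked vesicle transport, had folds of 46.3 in 2iL and 38.5 at 48 h, and one 1.04 kb from Pdgfa, a growth factor gene, had 40.7 and 33.9. They ranked next in both lists after one inside the phospholipase gene Pld1 (48.2 and 42.8). A region inside Nrip1, which encodes a corepressor of nuclear receptors (chromosome 16, 76319393 to 76322574 in 2iL), had 39.4 and 32.8, with 294 and 416 reads, and was among the 5 strongest shared regions of both lists. A region at the end of Asmt, a gene of melatonin synthesis, had a fold of 39.1 in 2iL and 16.4 at 48 h, and was still above 98.6% of the 48 h list. A region 51.5 kb from Klf4, a naive pluripotency factor, had 18.5 in 2iL and 33.8 at 48 h, a difference of 1.15 percentile points.

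Other pairs moved from one end of the range to the other. The largest gain was at a region 12.2 kb from Zfp827, a zinc finger gene (chromosome 8, 79014785 to 79015716 in 2iL). Its fold was 3.54 in 2iL and 10.98 at 48 h, at the 5.71 and 93.1 percentiles, with 57 and 131 reads. A region 12.0 kb from Ier5, an immediate early gene, had 3.16 and 9.60. A region 3.01 kb from Eno1, a glycolytic enzyme gene, had 3.53 and 10.2. The other 7 largest gains lay nearest Greb1l, Irx3, Gm41291, Galc, Afap1, Vstm2b and Clmp, by 80.9 to 84.6 points.

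The largest loss was at a region 12.8 kb from Cd9, which encodes a tetraspanin of the cell surface (chromosome 6, 125446411 to 125448333 in 2iL). Its fold was 18.5 in 2iL and 2.29 at 48 h, with 200 and 47 reads, which placed it at the 98.8 and 1.15 percentiles. The summits of the pair were 14 bp apart. A region inside Sgk3, a kinase gene related to Sgk1, had 18.0 and 3.18. A second region inside Slc39a11 had 11.1 and 2.32, so that gene held both a strong 2iL-only region and one of the largest losses. Regions nearest Csad, Arfgef2, Msr1, Amt, Kiss1, Plxnb2 and Ssh1 made up the 10 largest losses, with changes of -97.7 to -83.0 points. Ranking by p-value in place of fold left the direction of these 20 pairs as it was.

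Place relative to genes went with sharing at equal strength. A summit at a gene end, meaning within 1 kb of the first or last base of a protein-coding gene, was found in 11.6% (10.9 to 12.4) of shared 2iL regions, 10.0% (9.30 to 10.7) of 2iL-only regions and 8.32% (7.48 to 9.22) of 48 h-only regions. Summits far from genes, over 50 kb away, made up 16.2%, 18.4% and 19.3%. In the weakest 20% of 2iL regions the shared share hardly differed, 30.3% (26.2 to 34.6) at gene ends and 28.2% (23.6 to 33.1) far from genes. In the middle 20% it was 62.6% (56.2 to 68.7) against 41.9% (37.5 to 46.4), and in the strongest 87.7% (82.5 to 91.8) against 71.1% (67.3 to 74.8). The 48 h list gave 55.1% against 37.3% in its weakest 20% and 96.3% (91.5 to 98.8) against 86.7% (83.2 to 89.8) in its strongest. Above the weakest 20%, regions elsewhere in genes and those outside genes within 50 kb lay between these places. Only 26 of the 620 2iL-only regions of the strongest 20% were at a gene end (4.19%), while 169 were far from genes (27.3%). Of all 2754 regions in that group, shared or not, 211 were at a gene end (7.66%) and 585 far from genes (21.2%).

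**Figure D3:**
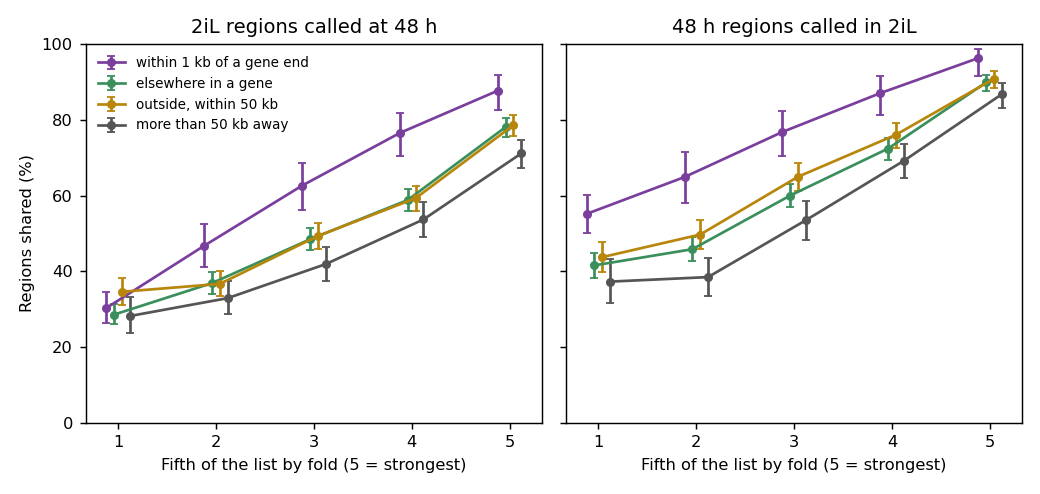
Share of regions that overlapped the other list (y axis, %) by 5 equal groups of fold within the list (x axis, 5 is the strongest), for 2iL regions (left) and 48 h regions (right), split by the place of the summit relative to protein-coding genes; points are shares and bars exact 95% intervals. Gene-end regions lie above those more than 50 kb away in 2iL in all but the weakest group, and in all 5 groups at 48 h.

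Gene-end regions were shared more often but ranked lower at 48 h by fold. The 784 one-to-one pairs at gene ends had a median change of -6.02 points, with 84 at least 25 points higher and 189 (24.1%) lower, against -0.327 points for the 1088 pairs far from genes, with 177 higher and 195 lower. The gap was there in each of the 5 groups of the 2iL list, for example 6.46 against 29.4 points in the weakest and -12.4 against -7.40 in the strongest. Local background moved with it. Its median at gene ends was 9.25 reads in 2iL and 19.4 at 48 h, and far from genes 6.90 and 10.3, while reads at the summit were 53 and 84 at gene ends and 51 and 61 far away. When regions were ranked by p-value the medians were 0.0072 and -2.23 points, so the lower rank of gene-end regions held for fold alone. The part of background in it was not tested.

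Starts could be told from other gene ends for genes in the promoter table. A summit lay within 1 kb of a listed start in 11.2% (10.5 to 12.0) of shared 2iL regions, 9.02% (8.35 to 9.73) of 2iL-only and 7.15% (6.37 to 7.99) of 48 h-only regions. The summits fell on both sides of the start, with 48.4%, 45.9% and 48.6% upstream.

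Across 21887 protein-coding genes, 12252 (56.0%) had a 2iL region within 50 kb of the gene span and 10921 (49.9%) a 48 h region. Both lists had a region near 9492 genes, 2760 had one in 2iL and none at 48 h, 1429 the reverse, and 8206 had none. A shared region lay near 8507. Fewer regions at 48 h than in 2iL were counted at 6557 genes (30.0%) and more at 3204 (14.6%). Genes with more 2iL regions were rarely without one at 48 h. A 48 h region lay near 14.8% of genes with no 2iL region, 62.5% of those with 1, and 98.6% of those with 5 or more.

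Some genes exchanged all of their regions and others none. Selplg, a selectin ligand gene, and Tbc1d8, a gene of a Rab GTPase regulator, each had 6 regions in 2iL and none at 48 h. Amotl1, Rnf149 and Snd1 also had 6 in 2iL, none shared, and 1 other at 48 h each. Rnf149 lies near Tbc1d8, and some of their 2iL regions are the same, among them the strongest of both (fold 8.38). Cd22, an inhibitory receptor of B cells, had 5 and none, as did Clasrp, a splicing factor gene whose neighbours Relb and Zfp296 lay near the same 5 regions. Actn1, an actin crosslinker gene, had 5, none shared, and 2 others at 48 h. At the other extreme, Pafah1b1, which encodes the dynein regulator LIS1, had 8 2iL regions, all shared, and 9 at 48 h. Cacnb1, a calcium channel subunit gene, had 7 in both lists, and Mipep, a mitochondrial peptidase gene, 7 and 8, again with every 2iL region shared. The same held for 6 2iL regions each near Cbfa2t2, Cluh, Dbndd2, Dennd2c and 2410137M14Rik, which had 8, 5, 6, 9 and 6 at 48 h. Dbndd2 and 2410137M14Rik have neighbours near the same regions. Cluh lies beside Pafah1b1 and has the same highest 2iL fold (9.71), so these 2 genes do not count regions independently. The 48 h-only regions were most numerous, 7 each, at Arhgap26, Etl4, Grik3, Megf11 and Nfib, which have spans of 217 to 900.3 kb. Clybl, Cntnap2 and Cdh1 had 6 each. Clybl, a mitochondrial enzyme gene, had 8 regions in 2iL, 7 of them shared, and 13 at 48 h, and Cntnap2, a neuronal adhesion gene, had 4, 3 of them shared, and 9. Cdh1 had the shortest span of these 8 genes, 66.9 kb. It encodes E-cadherin, the adhesion molecule of epithelial and stem cell colonies, and had 4 regions in 2iL, all shared, and 10 at 48 h. Its shared regions ranked between the 23.2 and 62.2 percentiles in 2iL and between 40.9 and 76.9 at 48 h, above all 6 of its 48 h-only regions, which reached at most the 35.8 percentile.

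**Figure D4:**
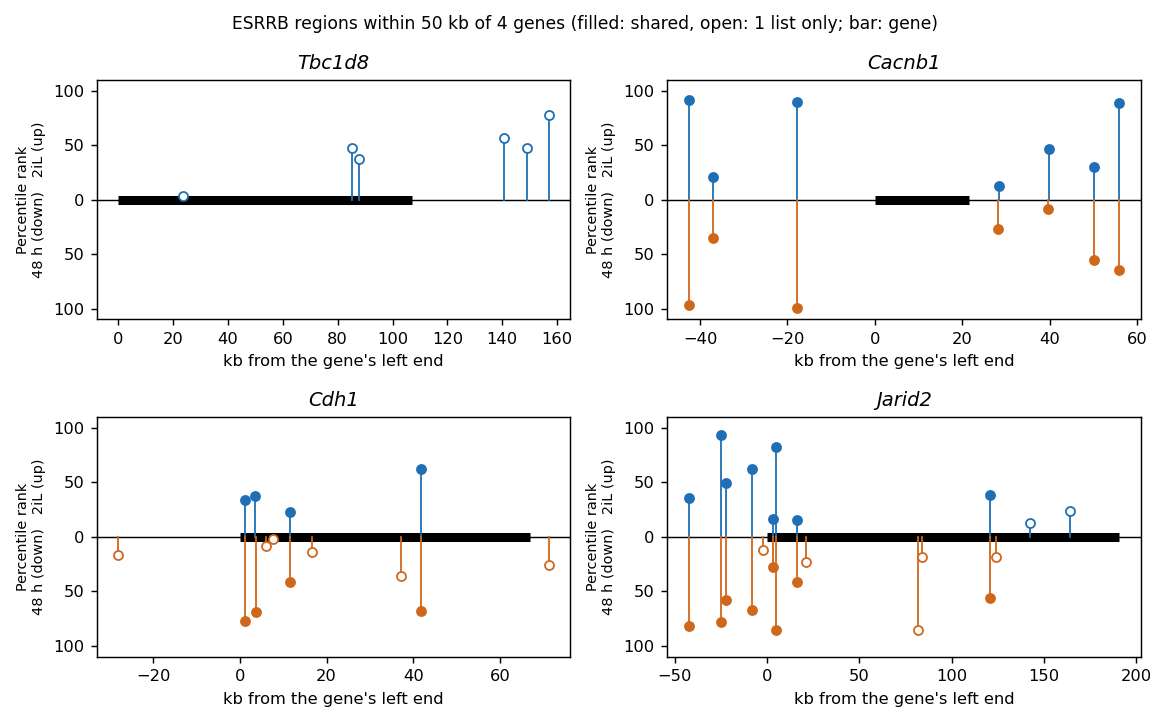
Regions within 50 kb of Tbc1d8, Cacnb1, Cdh1 and Jarid2, by distance of the summit from the left end of the gene (x axis, kb); height is the percentile rank of fold within the list, upward for 2iL (blue) and downward for 48 h (orange), filled circles are shared regions, open circles 2iL-only or 48 h-only, and the thick bar is the gene. Tbc1d8 has 6 open 2iL circles and none at 48 h, all circles of Cacnb1 are filled, and Cdh1 and Jarid2 have open circles at 48 h of which all but 1 rank below the 50 percentile.

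Genes of known roles were read against all protein-coding genes, near which 5848 of 11386 2iL regions (51.4%) were shared and 3230 of 9070 48 h regions (35.6%) were 48 h-only. The 13 lists are described by their counts. Lists share some genes, and neighbouring members can share regions, which count once in a list.

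The naive network, the factors and markers of ground-state stem cells, had 91 2iL regions near its 20 genes, of which 48 were shared (52.7%, 42.0 to 63.3). The share was 41.8% when both regions had to overlap by 50% of their length, against 44.6% near all genes by that rule. The 48 h side of the list differed more from the background, since 6 of 54 regions were 48 h-only (11.1%, against 35.6% for all genes). No member had more regions at 48 h, and 14 of the 20 had fewer. Of all 21887 genes, 3204 had more (14.6%) and 6557 fewer (30.0%), with 8206 having no region in either list. The 48 h regions of the list ranked high, at a median percentile of 73.4, against 48.8 near all genes. Esrrb itself had the most regions, 12 in 2iL and 4 at 48 h, all 4 shared. Fgf4 had 8 and 5, Dppa5a 6 and 4, and Klf5, Tfcp2l1 and Zfp42 5 in both lists. Among the others, Nr5a2 had 5 and 1, and Gbx2 (4) and Klf4 (2) had regions in 2iL alone within 50 kb of the gene. The 2 near Klf4 had folds of 3.74 and 4.85. The strong shared region 51.5 kb from Klf4 (18.5 and 33.8) fell just outside that window and is not counted here. Sox15, a partner of OCT4, had its strongest region 47.3 kb away, at folds of 13.6 and 16.4, while one 0.45 kb away (4.02) was 2iL-only. Nr0b1, an orphan receptor that binds ESRRB, had its strongest region 4.35 kb away, at folds of 15.0 and 18.5. At the start of Nr0b1 itself a shared summit had 11.1 and 10.9. At the start of Zfp42, the marker REX1, a shared summit had 10.9 and 6.41, and at Nanog 5.80 and 5.29. None of these 3 windows held AAGGTCA. Nanog had 6 regions in 2iL and 3 at 48 h, all 3 shared. Its strongest 2iL region, 17.2 kb away (fold 10.5), and one 4.55 kb away (8.76) were 2iL-only. Tbx3, a T-box factor of the network, had its strongest 2iL region (fold 13.1) in 2iL only, while another of its regions had 5.33 and 9.53. Tcl1 had no region in either list.

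Genes expressed in both naive and later pluripotent cells had the highest shared share, 32 of 40 regions (80%, 64.4 to 90.9). It was 62.5% when both regions had to overlap by 50% of their length, against 44.6% near all genes by that rule. Within 10 kb it was 95% (19 of 20). Of 38 regions at 48 h, 6 were 48 h-only. All 2iL regions near Trim28, Mycn, Rif1, Tdgf1, Utf1, Sall4 and Foxd3 were shared. The gene of OCT4, Pou5f1, had the most regions of the list, 9 in 2iL, 6 of them shared, and 5 at 48 h. Sall4 had 4 and 5, Sox2 4 and 3, Zfp281 4 and 3, and Trim28 and Utf1 3 and 4. Near Rif1, a regulator of replication timing, a region 17.0 kb away had folds of 10.1 and 16.2. Near Trim28, a corepressor gene, the strongest had 16.5 and 14.9. At Utf1, a chromatin-bound stem cell factor, the order of regions changed. A region 0.624 kb from the gene had folds of 3.23 and 6.13, while those 5.55 and 7.28 kb away had 6.38 and 3.83, and 6.35 and 2.97. A 48 h-only region 6.47 kb from Utf1 was the strongest there, at 8.68. Myc had no region in either list.

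Formative genes, which are switched on as cells leave the naive state, shared 31 of 45 regions (68.9%, 53.4 to 81.8). With that stricter overlap it was 53.3%, against 44.6% near all genes. A further 18 of their 50 regions at 48 h were 48 h-only (36%), close to the background. Of the 27 one-to-one pairs of the list, 7 ranked at least 25 points higher at 48 h (25.9%) and 4 lower (14.8%). Near all genes the shares were 15.5% and 19.6%, so the falls named below do not stand for the list. Near Otx2, a homeobox factor of formative cells, 2 neighbouring 2iL regions (folds 11.7 and 14.9) met a single 48 h region (fold 15.0). Etv5, an ETS factor downstream of FGF, had 8 regions and then 6, and its strongest had folds of 17.0 and 5.63. Near Tcf7l1, a repressor of WNT targets, 8 regions became 4, with the strongest at 18.4 and 6.88. The single 2iL region near Pou3f1, a POU factor gene, lay 48.7 kb away and had folds of 13.4 and 5.31. At 48 h, 2 others were called, 12.6 and 10.9 kb away. At Dnmt3l, a cofactor of DNA methylation, the strongest 48 h region (9.98, 3.98 kb away) was 48 h-only. Zic5, a zinc finger gene, had 5 regions in 2iL and 3 at 48 h, all 3 shared, while Lef1, a WNT pathway factor, had 2 and 5, and Dnmt3l 2 and 4. Sox3 had no region.

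Genes of nuclear receptors and their coregulators shared 25 of 41 regions (61.0%, 44.5 to 75.8), and 13 of 38 regions at 48 h were 48 h-only. The shared share was 50% (11 of 22) when a region counted for its nearest gene alone, against 51.4% for all genes. Within 10 kb it was 61.9% (13 of 21). Ncoa3, the coactivator, had 7 regions, 6 of them shared, and its strongest had folds of 14.7 and 18.2. Rara, a retinoic acid receptor gene, had 5 regions, 4 of them shared, and 6 at 48 h. Nrip1, with one of the strongest regions of both lists, had 4 and 2, and its other 2 2iL regions were 2iL-only. Rarg had 3 and 4, Ncoa2 3 and 3, and Ncoa1 2 and 4, of which 3 were 48 h-only. Esrra, the related receptor ERRα, had 13.2 and 9.504. Near Rarg, another such gene, the strongest 48 h region had 6.65 in 2iL and 16.1 at 48 h, while the strongest 2iL region had 12.4 and 8.16. Both regions near Nr2f2, an orphan receptor gene, were 2iL-only. Nr2f1, Rxra and Ppargc1a had no region.

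Energy metabolism genes shared 27 of 43 regions (62.8%, 46.7 to 77.0), and 8 of 35 at 48 h were 48 h-only (22.9%). The shared share was 80% (20 of 25) when a region counted for its nearest gene alone. Cox5a had 3 regions in 2iL and 4 at 48 h, Atp5a1 and Ndufs1 3 in both, and Cs and Acadm 4 and 2. The median rank change of the shared pairs was -6.16 points, against -1.35 near all genes. Near Atp5a1, an ATP synthase subunit gene, the strongest region had folds of 19.0 and 9.33 with 137 and 214 reads, so the fold was lower although more reads were counted. Near Sdha, a succinate dehydrogenase subunit gene, it had 14.9 and 6.58 with 216 and 214 reads. At the starts of Ogdh, Slc25a4 and Sdhb shared summits had 9.21 and 7.07, 8.03 and 4.37, and 6.25 and 3.66. Near Ndufv1, a complex I subunit gene, the order was the other way, with 8.63 and 11.7.

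Targets and components of the signals that 2iL controls were near many regions too. FGF and ERK genes shared 27 of 40 regions (67.5%, 50.9 to 81.4), and 13 of 41 at 48 h were 48 h-only. Of their 26 one-to-one pairs, 2 ranked at least 25 points higher at 48 h (7.69%) and 6 lower (23.1%). Near all genes the shares were 15.5% and 19.6%, so the gains named next do not stand for the list. Near Spry1, a feedback inhibitor of FGF signalling, a region 29.1 kb away had folds of 5.75 and 12.7, at the 47.5 and 96.1 percentiles. Spry2, its relative, shared 6 of 7 regions and Spred2, another inhibitor, all 5, with 7 at 48 h. Spry4 had 2 and 5, Fos 5 and 2, Grb2 4 and 3, and Spry1 4 and 2. At Fgfr2, a shared region had 6.95 and 8.68, beside the 48 h-only region of 13.3. Dusp4, an ERK phosphatase gene, had 2 regions at 48 h alone. WNT targets shared 19 of 31 (61.3%, 42.2 to 78.1). Rnf43 had 5 and 4, Cdx1 5 and 3, Lef1 2 and 5, Axin2 4 and 2, Znrf3 2 and 3, Notum 3 and 1, and Cdx2 and Dkk1 2 in both. Near Sp5, a WNT-induced repressor, the region had 12.7 and 4.89, and near Znrf3, a receptor-degrading ligase gene, 8.79 and 8.91. All 3 regions near T, the mesoderm factor Brachyury, were 2iL-only, and Nkd1 and Lgr5 had none.

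LIF and STAT3 genes shared 15 of 30 regions (50%, 31.3 to 68.7). The share was 76.9% (10 of 13) within 10 kb and 63.2% (12 of 19) when a region counted for its nearest gene alone. The receptor gene Lifr shared 4 of 6 regions, with its strongest 2iL region at folds of 20.3 and 13.9, and a second at 18.5 and 19.9. Il6st, the co-receptor gp130, had 10.6 and 13.2. Socs3, the feedback inhibitor, had 15.4 and 17.8. None of the 5 2iL regions near Pim3, a STAT3-induced kinase gene, was shared, and 1 of them had its summit in the promoter window, which held AAGGTCA. Pim1 had 4 regions in 2iL and 3 at 48 h, and Bcl3 and Junb had 2 and 3. Jak1 had no region.

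**Figure D5:**
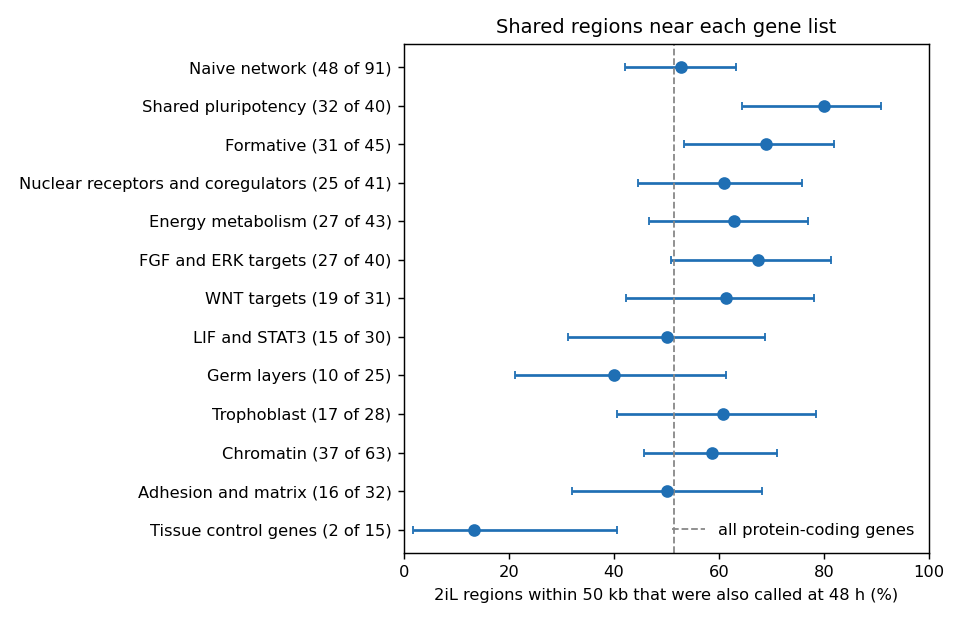
Share of 2iL regions within 50 kb of each gene list that were also called at 48 h (x axis, %), with the number shared and the number of 2iL regions beside each name; points are shares, bars exact 95% intervals for counting error, and the dashed line is the 51.4% of all protein-coding genes. The shared pluripotency list stands highest at 80% and the tissue control genes lowest at 13.3%.

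Chromatin regulators shared 37 of 63 regions (58.7%, 45.6 to 71.0). The share was 48% (12 of 25) within 10 kb, against 51.4% near all genes by that window. It was 62.5% (20 of 32) when a region counted for its nearest gene alone. The 31 one-to-one pairs of the list ranked a median of 8.90 points higher at 48 h, with 8 at least 25 points higher and 2 lower. Near all genes, 872 of 5623 pairs (15.5%) were that much higher and 1104 (19.6%) lower, with a median of -1.35. Near Eed, a Polycomb subunit gene, a region had folds of 6.28 and 11.5, and near Suz12, another, the strongest region had 9.78 and 10.99. Jarid2, a Polycomb cofactor gene, had 10 regions in 2iL and 13 at 48 h, 8 of them shared. At Tet1, an enzyme of DNA demethylation, the strongest 2iL region had 19.1 and 7.31 while another had 15.8 and 19.9. Near Kdm5b, a histone demethylase gene, 5 2iL regions and 1 at 48 h did not overlap. Chd4 had 6 and 5 regions, Tet1 5 and 5, Arid1a and Dnmt1 5 and 4, and Tet2 5 and 2. Kdm4c had no region.

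Lists of later lineages, adhesion and other tissues ranged more widely in their shared share. Germ layer genes shared 10 of 25 regions (40%, 21.1 to 61.3). Of their 10 pairs, none ranked at least 25 points higher at 48 h and 4 ranked that much lower (40%). Near all genes the shares were 15.5% and 19.6%. No region of either list lay near 8 of the 22 genes (36.4%), close to the 37.5% of all genes, and Foxa2, Gsc, Hes5, Lhx1, Mesp1, Mixl1 and Neurog2 were among these. Msi1 had 7 regions and then 3, Tubb3 3 and 2, Tbx6 2 and 2, Eomes 2 and 1, and Nes 1 and 2. Trophoblast genes shared 17 of 28 (60.7%, 40.6 to 78.5), of which 7 lay near Tfap2c, an AP-2 factor gene that stem cells also use, with 9 regions in 2iL and 8 at 48 h. Id2 had 3 in both, Bmp4 4 and 1, Hand1 3 and 2 with none shared, Tead4 3 and 2, Cdx2 2 in both and Fgfr2 1 and 3. Elf5, Krt8 and Krt18 had none. Adhesion and matrix genes shared 16 of 32 (50%, 31.9 to 68.1), and all 4 regions near Lamb1 and both near Lama1, laminin genes, were 2iL-only. The list's share was 68.4% within 10 kb and 61.9% by nearest gene alone. Besides Cdh1, Cldn4 had 5 and 4 regions, Fn1 3 and 4, Col4a2 3 and 2, and Lamc1, Snai1 and Spp1 3 and 1. Cdh2, Cldn7, Itgb1, Ocln, Tjp1, Vim and Zeb2 had none. Genes of other tissues, kept as controls, shared 2 of 15 regions (13.3%, 1.66 to 40.5), and 8 of their 10 regions at 48 h were 48 h-only. Apoa2 had 3 and 4 regions with none shared, Myl1 3 and 3, Mb 4 and none, Myh6 1 and 2, Ckm 1 and 1, and Prl 2 and none. That list is small, and 9 of its 16 genes had no region, among them Alb, Cd3e, Csn2, Hba-a1, Hbb-bt, Ins1, Ins2 and Ttr.

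MicroRNA loci were added after seeing the data. Of 1005 hairpins in the RefSeq table, 191 had a 2iL region within 10 kb, 183 a 48 h region and 128 both. The miR-290 cluster, the main microRNA locus of mouse embryonic stem cells, and the miR-302 cluster, which is known from later pluripotent cells, are shown because both had a shared region and their products share the seed AAGUGCU (bases 2 to 8, in capitals).
miR-291a-3p: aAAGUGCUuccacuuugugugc
miR-294-3p: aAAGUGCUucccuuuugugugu
miR-295-3p: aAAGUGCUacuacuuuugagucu
miR-302b-3p: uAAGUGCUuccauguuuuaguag
miR-302d-3p: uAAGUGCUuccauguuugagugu

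The miR-290 cluster (chr7:3218626-3220841) had 6 2iL regions within 20 kb, 5 of them shared. The region 927 bp before the first hairpin had a fold of 12.4 in 2iL and 13.1 at 48 h, with 164 and 265 reads. The others had 12.4 and 7.25, 11.5 and 11.8, 7.28 and 7.38, and 3.24 and 3.12. The 2iL-only region there was weak, at 4.44. At the miR-302 cluster (chr3:127545228-127545807) a single region, 367 bp from it in 2iL, had 4.004 and 3.62, at the 12.1 and 17.8 percentiles.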

How the data were processed

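ESRRB ChIP-seq peak lists of 2iL and 48 h, 1 library each, were used; the inputs and the 96 h list (counted only) were not compared. Per the submitters' processing notes, bcl2fastq 2.20.0.422, BWA, SAMtools, Picard and MACS2 were used with build mm10; what each tool did, further versions, filters, the control and the threshold: not given in the sources used here. For every summit the authors deposited a fold enrichment (a ratio to local background), −log10 p-values and q-values, and a score capped at 1000. From the values, the fold carries a pseudocount of 1, and fold with p gave whole reads at the summit for 100% of regions within 0.05 of a step. The files hold no library totals, so depth is given by these reads and by the lowest background, a floor that also depends on fragment length.

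Each unique interval was 1 region, ranked by the highest fold within its list (Python 3.11.15, pandas 2.3.3, SciPy 1.17.1). Overlap counts matched those of bedtools 2.31.1, and the functions were tested on simulated regions. Genes, promoter windows and microRNAs came from RefSeq tables of GRCm38.p6, the same assembly as mm10. Gene spans carry no strand or exons, so gene ends stand for either end, and exons and introns were not told apart. Of 216 distinct listed genes, 157 had a promoter window. Named regions are, with their nearest gene, the 10 strongest 2iL-only and 48 h-only regions, the 10 largest gains and losses in rank among pairs at or above the median in at least 1 list, and the 5 strongest shared regions of each list. Named genes are the 8 with most 2iL-only regions and no shared one, with most 48 h-only regions, and with most 2iL regions all shared, and in each list the up to 6 members with most regions and those with none. Other list members named were chosen after their values were seen. Some listed genes are not reported here. Members and lists were chosen with earlier results of these data known. No p-value was computed.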

Additional observations from a re-analysis of the deposited data

How the results depend on the processing

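When regions had to overlap by 50% of both lengths, 44.1% of 2iL and 55.3% of 48 h regions were shared, with summits within 200 bp 47.2% and 59.3%, and with lists of equal length 55.9% and 56.2%. The strongest and weakest 20% gave 81.2% and 24.3% in 2iL and 93.0% and 34.9% at 48 h when ranked by p-value, and 68.1% and 24.5%, and 81.4% and 35.3%, with the overlap of 50%, so the order by strength held in each. The median rank change turned from -1.16 to 0.119 points when ranks were taken over the pairs alone, and at gene ends from -6.02 to 0.0072 when ranked by p-value, an alternative added after seeing the data, as were those on sharing by place. Gene ends within 500 bp held 7.43%, 6.96% and 4.92% of shared 2iL, 2iL-only and 48 h-only regions. The overlap of 50% gave 44.6% shared near all genes, and a 10 kb window left 6943 genes near a 2iL region and 5933 near a 48 h region. In promoter windows AAGGTCA was in 32.8%, 20.5% and 37.3% of shared, 2iL-only and 48 h-only windows and 4.72% of all, and TCAAGGTCA in 1.45%, 0.281% and 1.81% when any overlap of the region counted, against 0.423% of all, with AAGGTCA then in 10.6%, 8.57% and 10.1%. The cause of these shifts was not tested beyond the construction of each alternative. A q of 1e-05 or less moved no share of the lists or of the genome beyond its counting interval. No paired analysis was possible because each condition had 1 library.

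With 1 library per condition, a difference between conditions cannot be told apart from one between libraries. Calling thresholds, depth and background limit weak regions most, and shares near small gene lists have wide intervals.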
